A study of Mus musculus with 4 samples.

Results

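Respiratory complex I genes were taken as the genes whose name on the array begins with Nduf. The array carried 38 such names on 56 probes, among 27745 gene names in all. Each gene was represented by its brightest probe that was well above background on all 4 arrays. All 38 genes had such a probe, so none was lost to the filter on dim signals, and they were set beside the 14980 genes of the array that passed the same filter. The genes comprise 7 core subunits encoded in the nucleus, 8 accessory subunits of the peripheral arm, 20 accessory subunits of the membrane arm, 2 assembly factors (Ndufaf1 and Ndufa12l, which RefSeq now calls Ndufaf2) and Ndufa4, which was first counted as a subunit of complex I and was later assigned to complex IV. The rule picks genes by their names and not by their differences between genotypes, but it was set with earlier results of these data known.

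Skeletal muscle RNA came from mice 10 weeks old that had free access to food and was hybridised to one-colour Agilent arrays, with 1 array for each of 4 genotypes. The genotypes were WT, TBP-2-/- (called Txnip-null here, since TBP-2 is another name of Txnip), ob/ob, and ob/ob TBP-2-/- (the double mutant, ob/ob Txnip-null). Txnip encodes an arrestin-like protein that inhibits thioredoxin and limits the entry of glucose into cells. Ob/ob mice lack leptin, the satiety hormone of fat cells, and grow obese and resistant to insulin. The labels name no Cre, promoter or deleted exon for the Txnip allele. Which muscle was taken, the strain, the sex and whether an RNA sample came from 1 mouse or from a pool were not given in the sources used here. Txnip loss was compared in lean mice (Txnip-null against WT) and in ob/ob mice (double mutant against ob/ob), and ob/ob was compared with Txnip (ob/ob against WT) and without Txnip (double mutant against Txnip-null). A single array stands for each genotype, so the pairwise differences have no replicate check, and "higher" and "lower" describe these arrays.

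Complex I takes electrons from NADH, passes them along a chain of iron-sulfur clusters to ubiquinone, and pumps protons across the inner mitochondrial membrane. It is L-shaped: the peripheral arm in the matrix holds the NADH site and the iron-sulfur clusters, and the membrane arm pumps the protons. Its core subunits carry out the catalysis and are shared with bacteria. Those of the peripheral arm are encoded in the nucleus and those of the membrane arm in mitochondrial DNA, while the accessory subunits surround the core and are needed for its assembly or stability. Skeletal muscle is rich in mitochondria, slow oxidative fibres more so than fast glycolytic ones, and the nuclear genes of the respiratory chain are known targets of the factors NRF1, GABP (an ETS protein), ERR alpha and YY1, with PGC-1 alpha as a coactivator.

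The promoters of 4 members are shown because they bracket the patterns described here: Ndufa8 holds an NRF1 core, Ndufb6 and Ndufaf1 hold an ETS core and had the lowest differences for Txnip loss in ob/ob mice, and Ndufc1 had the largest single difference of any member and no searched motif in this stretch. Each sequence is the 250 bases before the gene's start in RefSeq's GRCm38.p6 annotation, written 5' to 3' on the strand of the gene, which is the minus strand for each of them, and capitals mark the motif matches. The positions are chr2:36049339-36049588, chr4:40279422-40279671, chr2:119662835-119663084 and chr3:51408956-51409205, in the order printed.
Ndufa8: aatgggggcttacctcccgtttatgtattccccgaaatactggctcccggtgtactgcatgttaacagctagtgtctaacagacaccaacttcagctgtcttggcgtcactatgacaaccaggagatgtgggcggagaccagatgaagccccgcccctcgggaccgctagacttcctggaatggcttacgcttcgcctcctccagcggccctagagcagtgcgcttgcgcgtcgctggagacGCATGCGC
Ndufb6: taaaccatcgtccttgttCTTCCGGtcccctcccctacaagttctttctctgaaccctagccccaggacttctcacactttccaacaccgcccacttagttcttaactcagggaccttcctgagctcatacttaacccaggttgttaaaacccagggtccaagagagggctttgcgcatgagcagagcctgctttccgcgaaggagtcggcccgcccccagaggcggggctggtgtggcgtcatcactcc
Ndufaf1: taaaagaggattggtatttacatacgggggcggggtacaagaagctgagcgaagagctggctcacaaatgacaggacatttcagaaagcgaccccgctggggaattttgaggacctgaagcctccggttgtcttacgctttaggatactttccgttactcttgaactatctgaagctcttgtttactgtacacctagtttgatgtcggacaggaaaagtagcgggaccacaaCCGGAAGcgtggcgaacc
Ndufc1: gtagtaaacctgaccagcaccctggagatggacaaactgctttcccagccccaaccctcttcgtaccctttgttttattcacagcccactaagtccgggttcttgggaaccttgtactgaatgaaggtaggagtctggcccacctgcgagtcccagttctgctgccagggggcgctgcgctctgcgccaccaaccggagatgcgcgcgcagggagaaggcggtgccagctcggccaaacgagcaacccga
The motif letters were sought on both strands in windows of 300 bases, which add the 50 bases after the start, and 34 of the 38 members had an entry among the 27025 genes of the table. The NRF1 core GCGCATGC was found in 3 members, Ndufa6, Ndufa8 and Ndufa11 (8.82% of the members with an entry, against 3.05% of all genes). The ETS core CCGGAAG was found in 5, Ndufaf1, Ndufb6, Ndufb7, Ndufs3 and Ndufs8 (14.7% against 9.93%). For Txnip loss in ob/ob mice the differences of these 5 were -0.42, -0.48, 0.06, -0.03 and -0.40 in that order. Whether the motif goes with the difference was not tested. The YY1 motif AAGATGGCG was also found in 5, Ndufa9, Ndufc1, Ndufs4, Ndufs6 and Ndufs7 (14.7% against 1.64%), in none of them within the 250 bases before the start. The ERR motif TCAAGGTCA was found in 0 members and in 0.466% of all genes. No member held more than 1 of these motifs, and a match describes only letters in this window.

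The labels were checked on the targeted gene. Where Txnip was present its level was 5.56 (WT) and 5.41 (ob/ob), and where it was deleted 1.5 (Txnip-null) and -0.66 (double mutant), so it was low on the arrays labelled as lacking it and nowhere else. A level is the log2 processed signal minus the 75th percentile of the array, so 0 marks a probe at that percentile. It is a property of the probe, and levels of different probes are not compared as amounts of RNA. The 8 skeletal muscle markers, among them Acta1 and Ckm, were all well above background on every array. The arrays had between 22674 and 24220 probes well above background and no saturated spot. Replicate spots of a probe had a median SD between 0.0598 and 0.0691 on the log2 scale. The scanner software's error model gave each member's difference between a pair of arrays a standard error of 0.20, which covers technical error and not the spread between mice. It was nearly constant, from 0.20403 to 0.20405, while replicate spots gave a smaller SD of a difference, 0.092.

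Complex I genes had their highest level in WT muscle with scaling at the 75th percentile, and mostly in ob/ob muscle with scaling to the spike-in probes. With the former, all 38 members were highest on the WT array, whereas 35.5% of all genes were highest there and 57.1% of genes of like brightness (1931 genes whose mean level lay between 3.78 and 8.47, the 10th and 90th percentiles of the members). The lowest array was the double mutant for 20 members, ob/ob for 17 and Txnip-null for 1. The median level of the members was 7.22 on the WT array, 6.89 on Txnip-null, 6.66 on ob/ob and 6.73 on the double mutant. The members' probes lie on 15 chromosomes. With quantile normalization 29 members were highest on the WT array, against 30.2% of all genes. With scaling to the spike-in probes 6 members were highest there, against 2.53% of all genes. Under that scaling 30 members were highest on the ob/ob array, as were 82.6% of all genes. Summed tendon markers were lowest on the WT array (6.01 in units of its 75th percentile, 31.5 to 52.4 on the others) and summed slow fibre markers highest there (2551, against 1395 to 2313), and their part in the complex I order was not tested. In whole muscle, fewer fibres or mitochondria-rich cells and less RNA per cell cannot be told apart.

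**Figure D1:**
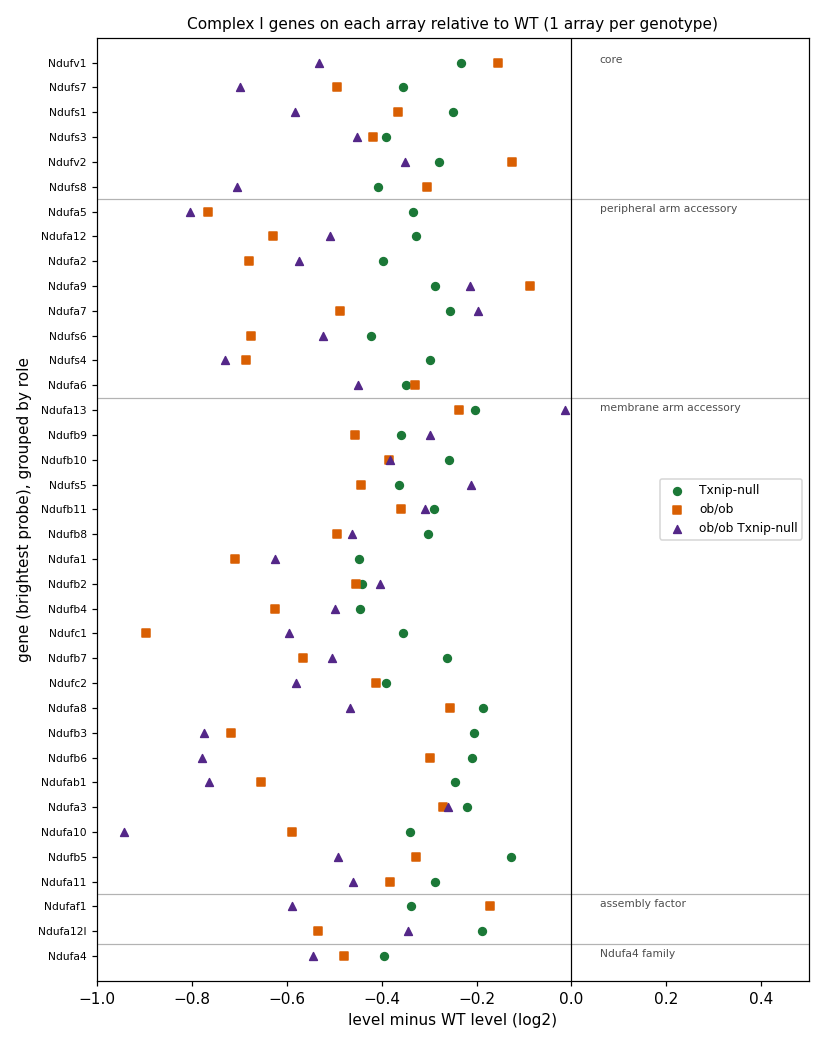
Each row is 1 of 37 complex I genes, grouped by role, and each point is its level on the Txnip-null (circle), ob/ob (square) or double mutant (ob/ob Txnip-null, triangle) array minus its level on the WT array (log2). With scaling at the 75th percentile all points lie left of 0 (with spike-in scaling the ob/ob median is 0.20), and the ob/ob points reach from -0.90 for Ndufc1 to -0.09 for Ndufa9.

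The comparisons differed in how far the members were below 0 and how tightly they kept together. Txnip loss in lean mice had a median over the members of -0.30 (quartiles -0.36 and -0.25), with all 38 below 0 and 18 members lower by 0.32 or more (log2), a threshold passed by 13.1% of all genes and by 15.8% of genes of like brightness. Ob/ob with Txnip had a median of -0.45 (quartiles -0.62 and -0.31), with all 38 below 0 and 28 members past the threshold, against 20.0% of all genes and 32.9% of genes of like brightness. These comparisons share the WT array, and their medians depended on the scaling: -0.12 and -0.16 with quantile normalization, and -0.05 and 0.20 with spike-in scaling. At 1.5-fold, 11 members were lower in ob/ob than in WT (6.8% of all genes) and 0 in Txnip-null than in WT (2.96%).

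The comparisons that leave out the WT array had medians nearer to 0 with this scaling. With quantile normalization theirs were -0.12 and -0.17. With spike-in scaling theirs were -0.55 and -0.29, farther below 0 than those with WT. Under spike-in scaling 33 and 16 members were lower by 0.32 or more. The medians of all genes were then -0.48 and -0.08, and the share of all genes past the threshold was not counted. Txnip loss in ob/ob mice had a median of -0.04 (quartiles -0.20 and 0.10), with 21 members below 0 and 17 above, and 6 members were lower by 0.32 or more (11.8% of all genes, 8.13% of genes of like brightness). Ob/ob without Txnip had a median of -0.18 (quartiles -0.30 and -0.06), with 32 members below 0, and 9 members were lower by 0.32 or more (13.7% of all genes, 11.0% of genes of like brightness). At 1.5-fold, 0 members were lower in the first (3.57% of all genes) and 1, Ndufa10, in the second (4.91%). No member was higher by 0.32 or more in any of the 4 comparisons, while 14.4%, 17.2%, 15.3% and 16.4% of all genes were, in the order Txnip loss in lean mice, Txnip loss in ob/ob mice, ob/ob with Txnip and ob/ob without Txnip.

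The members were among the brightest genes of the array, and bright genes as a whole differed from the average gene in the comparisons that contain WT. With all genes split by mean level into 10 bins of equal size, 33 members lay in the brightest bin, 4 in the next and 1 in the one after. The brightest bin as a whole had medians of -0.19 for Txnip loss in lean mice and -0.24 for ob/ob with Txnip, and of 0.11 and 0.05 for the comparisons that leave out the WT array. Against genes of like brightness the members' medians lay at -0.12 for Txnip loss in lean mice, -0.12 for Txnip loss in ob/ob mice, -0.24 for ob/ob with Txnip and -0.23 for ob/ob without Txnip. Below the median of the genes of like brightness lay 37, 28, 33 and 33 members. That band had a median level of 5.02 on the WT array, below the members' 7.22. Against a narrower band between the members' quartiles (393 genes), the members' medians lay at -0.097, -0.17, -0.15 and -0.22 in the same order. In the narrower band 80, 33, 183 and 48 of the 393 genes were lower by 0.32 or more.

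**Figure D2:**
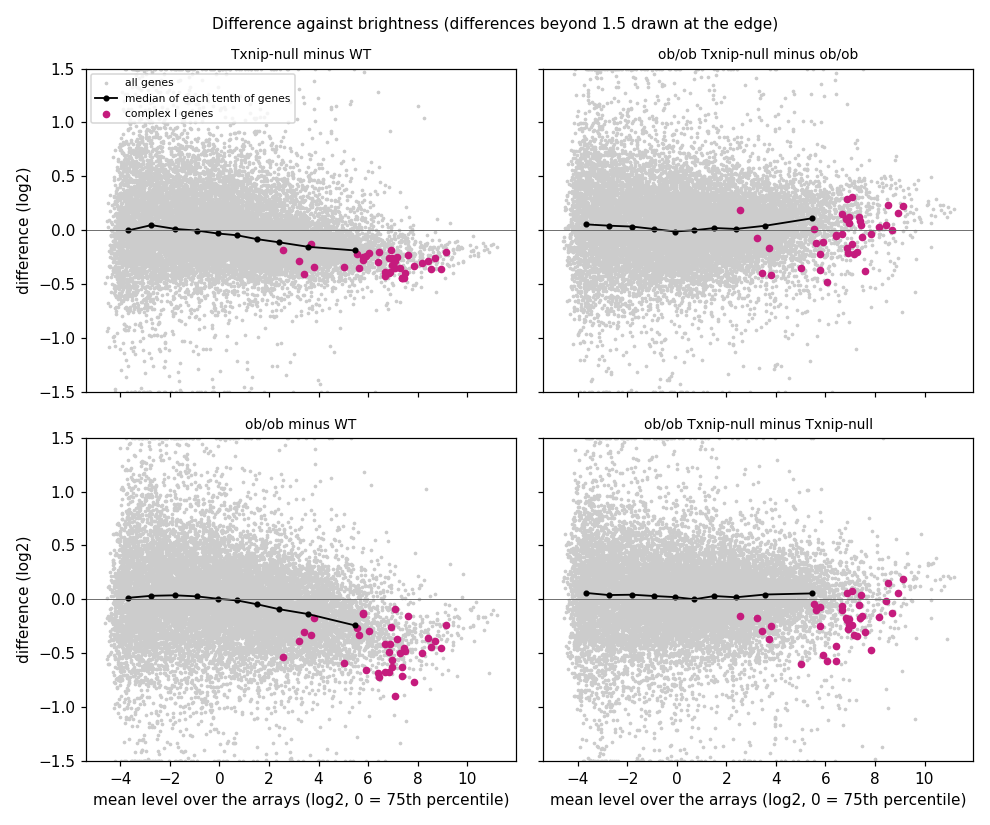
Each panel is 1 comparison and plots a gene's difference (log2) against its mean level over the 4 arrays (log2, 0 at the 75th percentile), for all genes (grey), the complex I genes (pink) and the medians of 10 bins of equal size (black). The black line slopes down to -0.19 and -0.24 in the panels that contain WT, and most pink points lie under it in each panel.

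The members, like the genes of complexes II to V, were less spread than genes of like brightness. Their SD over genes was 0.0824 for Txnip loss in lean mice, against 0.273 for genes of like brightness, with an interquartile range of 0.112 against 0.218. In the other comparisons the interquartile ranges were closer: 0.295 against 0.317 for Txnip loss in ob/ob mice, 0.306 against 0.362 for ob/ob with Txnip, and 0.236 against 0.311 for ob/ob without Txnip. The interquartile ranges of 45 genes of complexes II to V were 0.0945, 0.221, 0.194 and 0.238 in the order Txnip loss in lean mice, Txnip loss in ob/ob mice, ob/ob with Txnip and ob/ob without Txnip, narrower than those of complex I in each but ob/ob without Txnip. Between the Txnip differences on the lean and on the ob/ob background, which share no array, the correlation across the 38 members was -0.19, against 0.31 across all genes. For the ob/ob difference with and without Txnip it was 0.29, against 0.44. Genes on an array share its RNA and hybridisation and are not independent points.

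The core subunits were lower without Txnip on both backgrounds, though in lean mice 5 of 7 and a median of -0.03 remained with spike-in scaling. With the 75th percentile all 7 were below 0 in each of the 4 comparisons, with medians of -0.28 for Txnip loss in lean mice, -0.23 for Txnip loss in ob/ob mice, -0.30 for ob/ob with Txnip and -0.30 for ob/ob without Txnip. In the comparison of Txnip on the ob/ob background all 7 stayed below 0 under quantile normalization and normexp background correction too. Their medians were -0.35 and -0.40. Spike-in scaling shifts every gene by -0.51 in that comparison, so the core could only stay below 0 under it (median -0.73). All 28 accessory subunits were below 0 under it as well. For ob/ob with Txnip 4 of 7 stayed below 0 under quantile normalization and 0 of 7 under spike-in scaling.

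Ndufv1, which binds NADH and its flavin cofactor, had levels of 7.84 on the WT array, 7.60 on Txnip-null, 7.68 on ob/ob and 7.30 on the double mutant. The double mutant array was lowest and the ob/ob array lay nearer to WT than the Txnip-null array did. Loss of Txnip went with a difference of -0.23 on the lean and -0.38 on the ob/ob background. Ndufs8, an iron-sulfur subunit on the path to the quinone, had levels of 3.78, 3.37, 3.48 and 3.08 in the same order of arrays. Its Txnip differences were -0.41 and -0.40, close to even.

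Ndufv2, an iron-sulfur partner of Ndufv1, had levels of 5.98, 5.70, 5.85 and 5.63, and Txnip differences of -0.28 and -0.23. Ndufs1, the largest core subunit of the peripheral arm and a carrier of iron-sulfur clusters, had levels of 7.47, 7.22, 7.10 and 6.89. Both were lowest on the double mutant array. Ndufs7, which carries the last iron-sulfur cluster before the quinone, had levels of 7.68, 7.32, 7.18 and 6.98, so each mutant array lay below WT and the double mutant lowest. Ndufs3, a core subunit that carries no cluster, had levels of 7.0, 6.61, 6.58 and 6.55. It had the smallest Txnip difference of the core on the ob/ob background, -0.03, and the 3 mutant arrays lay close together.

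The accessory subunits differed from the core on the ob/ob background. Over the 28 accessory subunits the medians were -0.30 for Txnip loss in lean mice, 0.02 for Txnip loss in ob/ob mice, -0.47 for ob/ob with Txnip and -0.17 for ob/ob without Txnip, with 28, 12, 28 and 22 below 0. The Txnip difference on the ob/ob background minus that on the lean background had a median of 0.03 over the core, 0.37 over the accessory subunits of the peripheral arm and 0.29 over those of the membrane arm, and of 0.25 over genes of like brightness. Whether core and accessory subunits differ was not tested, because genes of 1 array are not replicates. Across the 38 members the Txnip difference on the ob/ob background had a correlation of 0.41 with mean level (4.35e-05 across all genes). The mean levels had a median of 6.69 and a maximum of 7.61 in the core, and 6.93 and 9.14 in the accessory subunits. The part of brightness in the contrast was not tested. The sign of the accessory median for Txnip loss in ob/ob mice turned with the processing: it was -0.08 with quantile normalization, -0.09 with normexp and -0.49 with spike-in scaling.

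**Figure D3:**
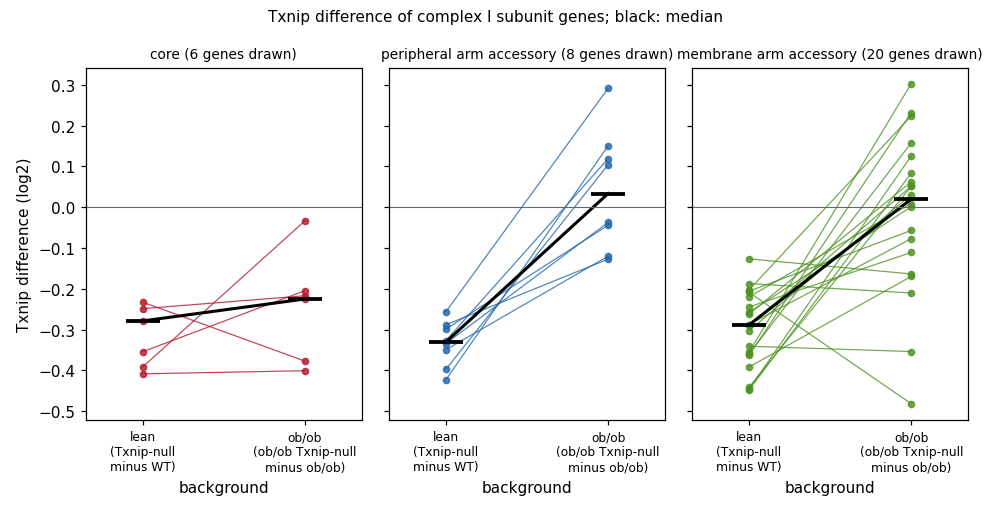
Each line joins the Txnip difference (log2) of 1 subunit gene on the lean background and on the ob/ob background, for 6 core, 8 peripheral arm accessory and 20 membrane arm accessory genes, with the median in black (over all 7 core genes). The core median moves from -0.28 to -0.23, and the accessory medians move from -0.33 to 0.03 and from -0.29 to 0.02 with this scaling (with quantile normalization they end at -0.05 and -0.08).

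Among the accessory subunits of the peripheral arm, 5 of 8 were 1.5-fold or more lower in ob/ob than in WT (6.8% of all genes). The median of the 8 was -0.65, and it was -0.34 with quantile normalization and -0.01 with spike-in scaling, where 4 of 8 were below 0. Ndufa5, a subunit of the module that passes electrons to the quinone, had levels of 8.33 on the WT array, 7.99 on Txnip-null, 7.56 on ob/ob and 7.52 on the double mutant. It was low on both ob/ob arrays, -0.77 with Txnip and -0.47 without. Ndufs4, whose loss causes a mitochondrial encephalopathy in mice and in patients, had levels of 6.84, 6.54, 6.15 and 6.11 and the same order of arrays (-0.69 and -0.43). Ndufs6, a zinc-binding subunit near the NADH module, had levels of 7.08, 6.66, 6.41 and 6.56, with ob/ob lowest. Its other probes, which measure the same transcript, gave -0.62 and -0.70 for ob/ob with Txnip, beside -0.67 for the brightest.

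Ndufa2, a subunit with a thioredoxin-like fold, had levels of 7.25, 6.86, 6.58 and 6.68, and Ndufa12 had levels of 7.31, 6.99, 6.68 and 6.80. In both, ob/ob was lowest and the double mutant lay between ob/ob and Txnip-null. Ndufa7 had levels of 7.10, 6.84, 6.61 and 6.90, and the double mutant lay above both single mutants. Ndufa9, which sits where the arms meet near the quinone site, had levels of 7.22, 6.93, 7.13 and 7.0. It had the smallest ob/ob with Txnip difference of all members, -0.09, within the error model's SE. Ndufa6 had differences of -0.35 for Txnip loss in lean mice and -0.33 for ob/ob with Txnip.

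The membrane arm held the members with the largest and the most opposed differences. Ndufc1 had levels of 7.53 on the WT array, 7.18 on Txnip-null, 6.63 on ob/ob and 6.94 on the double mutant. Its ob/ob array was lowest, with an ob/ob with Txnip difference of -0.90 (SE 0.20, 1.86-fold lower) and a Txnip difference of 0.30 on the ob/ob background. The brightest probe lies at chr3:51493415-51493474 (mm8), and the gene's other probes gave -0.79 and -0.87 for ob/ob with Txnip. Ndufb3 had levels of 6.86, 6.65, 6.14 and 6.08, low on both ob/ob arrays (-0.72 with Txnip and -0.57 without). Ndufab1, the mitochondrial acyl carrier protein that sits in complex I, had levels of 6.33, 6.08, 5.67 and 5.56 and was likewise low on both. Its dimmer probes above background gave smaller ob/ob with Txnip differences, -0.26 and -0.24 against -0.65. For ob/ob without Txnip they gave -0.15 and -0.002 against -0.52, so being low there rests mainly on the brightest probe.

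Ndufa10, a subunit with a nucleoside kinase fold, had levels of 5.48, 5.14, 4.89 and 4.54. Both genotypes went with lower levels on either background, and it was the lowest of all members in ob/ob without Txnip at -0.60. Ndufb6 had levels of 6.38, 6.17, 6.08 and 5.60, and its brightest probe spans an intron. The WT, Txnip-null and ob/ob arrays lay within 0.30 of WT and the double mutant stood below them, with the lowest Txnip difference of all members on the ob/ob background, -0.48. Ndufa8, one of the cysteine-rich subunits on the intermembrane side, had levels of 7.13, 6.95, 6.88 and 6.67, also lowest in the double mutant. Ndufb5 had levels of 3.94, 3.81, 3.61 and 3.45 and the smallest Txnip loss in lean mice difference of all members, -0.13.

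Ndufa1, an early subunit of membrane arm assembly encoded on the X chromosome, had levels of 7.82, 7.37, 7.11 and 7.20. Ndufb4 had levels of 7.75, 7.30, 7.12 and 7.25, and Ndufb2 had levels of 7.76, 7.32, 7.30 and 7.35. These were the lowest members in Txnip loss in lean mice, at -0.45, -0.45 and -0.44, and each had a Txnip difference between 0.05 and 0.13 on the ob/ob background. For Txnip loss in lean mice the dimmest of the 52 member probes above background, a second probe of Ndufb2, went the other way at 0.43. For Txnip loss in ob/ob mice the second probe of Ndufa1, also bright, gave -0.02 against 0.08 for the brightest.

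Ndufs5, another cysteine-rich subunit of the intermembrane side, had levels of 8.79, 8.42, 8.34 and 8.57. Ndufa13, also known as GRIM-19 for a role in cell death, had levels of 9.25, 9.05, 9.02 and 9.24. In both the double mutant lay above the single mutants, and for Ndufa13 it came within 0.02 of WT. They had the highest ob/ob without Txnip differences, 0.15 and 0.19, both inside the error model's SE of 0.20. The remaining members of the membrane arm, Ndufb7, Ndufb8, Ndufb9, Ndufb10, Ndufb11, Ndufc2, Ndufa3 and Ndufa11, had Txnip loss in lean mice differences from -0.39 to -0.22 and ob/ob with Txnip differences from -0.57 to -0.27.

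Of the assembly factors, Ndufaf1, which helps to build the membrane arm, had levels of 4.08 on the WT array, 3.74 on Txnip-null, 3.91 on ob/ob and 3.49 on the double mutant. Like Ndufv1 it was lower without Txnip on both backgrounds, by differences of -0.34 and -0.42, and ob/ob lay nearest to WT. Ndufa12l, an assembly factor related to Ndufa12, had levels of 2.82, 2.64, 2.29 and 2.48, with ob/ob lowest. Ndufa4 had levels of 7.85, 7.45, 7.37 and 7.30, highest in WT and lowest in the double mutant. With gene names updated through RefSeq, 44 genes had an Nduf name, among them Ndufaf3 to Ndufaf7 and Ndufv3, and all 44 were highest on the WT array.

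Different probes of a gene mostly had the same sign. Of 14 further probes above background for 10 members, 13 had the sign of the brightest probe in Txnip loss in lean mice, 10 in Txnip loss in ob/ob mice, 13 in ob/ob with Txnip and 14 in ob/ob without Txnip. Of the 56 probes, 4 were not well above background on all arrays; they belong to Ndufab1, Ndufs4, Ndufa3 and Ndufs1.

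The additive fit, the only test the design allows, called none of the members. It models the Txnip and the ob/ob genotype over the 4 arrays with limma, with 1 residual degree of freedom, and called 16 of 16200 genes for Txnip (0.0988%) and 32 for ob/ob (0.198%) at an adjusted p of 0.05. For ob/ob, 5 members had an unadjusted p under 0.05, all lower (6.12% of all genes were lower at that p). These were Ndufb3 at -0.64 (SE 0.16, limma adjusted p = 0.246), Ndufa10 at -0.60 (SE 0.16, limma adjusted p = 0.262), Ndufab1 at -0.59, Ndufa5 at -0.62 and Ndufs4 at -0.56. With spike-in scaling 0 members had an unadjusted p under 0.05 for ob/ob. For Txnip 0 members had an unadjusted p under 0.05, and the smallest limma adjusted p was 0.531, for Ndufs8 at -0.40 (SE 0.16). The error of this fit is the departure of these arrays from additivity and can differ from the spread between mice.

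The remaining respiratory chain and the mitochondrial ribosome had differences close to those of complex I. The 45 measured genes of complexes II to V had medians of -0.31 for Txnip loss in lean mice, -0.04 for Txnip loss in ob/ob mice, -0.45 for ob/ob with Txnip and -0.20 for ob/ob without Txnip, with 42 highest on the WT array. The 75 measured mitochondrial ribosomal protein genes had medians of -0.24, -0.03, -0.33 and -0.14, with 74 highest on the WT array. These sets were high on the same array as complex I, and whether complex I differs from them was not tested. Complex II, represented by 4 genes, had a median of -0.40 for Txnip loss in ob/ob mice, beside -0.23 for the core of complex I and 0.02 for its accessory subunits.

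**Figure D4:**
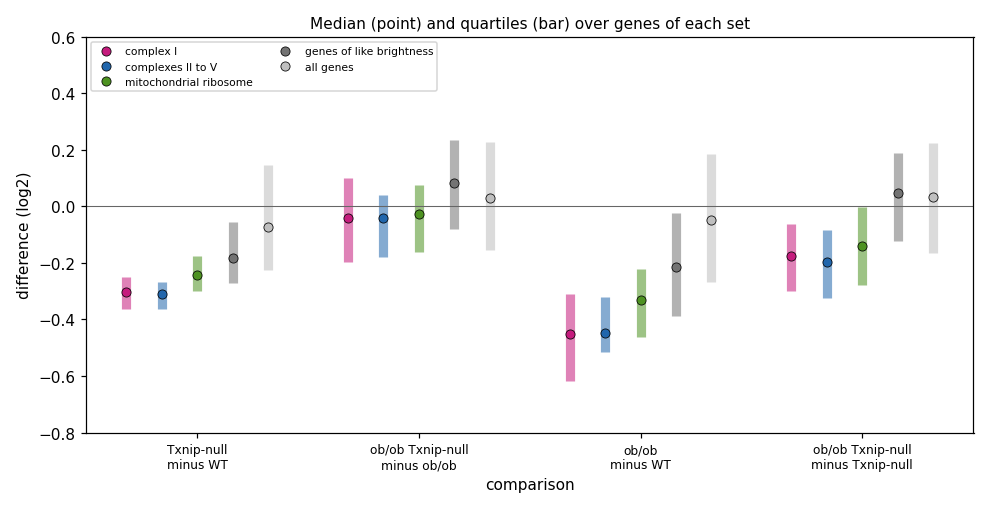
For each comparison the point is the median and the bar spans the quartiles of the difference (log2) over 38 complex I genes, 45 genes of complexes II to V, 75 mitochondrial ribosomal protein genes, 1931 genes of like brightness and 14980 genes in all. Complex I and complexes II to V lie side by side, at -0.30 and -0.31 for Txnip loss in lean mice and at -0.45 and -0.45 for ob/ob with Txnip.

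Of the complex I subunits encoded in mitochondrial DNA, ND4L was the gene on the array that could be matched, with levels of 8.10 on the WT array, 7.88 on Txnip-null, 7.87 on ob/ob and 7.74 on the double mutant. It had the WT array highest and the double mutant lowest, and its differences were -0.22 for Txnip loss in lean mice, -0.14 in ob/ob mice, -0.23 for ob/ob with Txnip and -0.15 without, the second larger and the others smaller than the members' medians. Of 11 other assembly factors listed, 10 were measured, and 2, 2, 4 and 2 of them were lower by 0.32 or more for Txnip loss in lean mice, Txnip loss in ob/ob mice, ob/ob with Txnip and ob/ob without Txnip, with 0 higher by as much (13.1%, 11.8%, 20.0% and 13.7% of all genes were as much lower). Of 6 regulators, 1, 1, 3 and 3 were lower by that much and 0 higher, to be read against the same shares. Ppargc1a, which encodes the coactivator PGC-1 alpha, had levels of 2.29, 1.96, 1.57 and 1.41, highest in WT and lowest in the double mutant. Esrra, which encodes ERR alpha, had levels of 4.71, 4.49, 4.61 and 4.18. Tfam, a factor for mitochondrial DNA transcription and replication, had levels of 6.27, 6.08, 5.93 and 5.68, and Nrf1 and Gabpa had ob/ob with Txnip differences of 0.18 and 0.07.

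Markers of other fibres and tissues differed between the arrays in several orders. All 8 slow fibre markers, Myh7 and Csrp3 among them, were lower by 0.32 or more in ob/ob than in WT (20.0% of all genes), with a median of -0.80. For Txnip loss in lean mice 0 of 8 were (13.1% of all genes). For Txnip loss in ob/ob mice 6 of 8 were (11.8%), with a median of -0.49, while Myl3 was higher by 0.23. For ob/ob without Txnip 7 of 8 were (13.7%), with a median of -1.38. The summed signal of the slow fibre markers in units of each array's 75th percentile was 2551 on WT, 2313 on Txnip-null, 1622 on ob/ob and 1395 on the double mutant. The summed signal of 6 tendon markers was 6.01, 31.5, 37.9 and 52.4 in the same order, lowest on the WT array where the complex I genes were highest. That of the 8 general skeletal muscle markers was 9345, 8299, 8363 and 8633. That of 6 adipocyte markers was 208, 314, 129 and 233, and in ob/ob against WT 3 of them were higher (Lep at 2.62, Adipoq at 0.65, Plin1 at 0.46) and 3 lower, Cfd most at -3.39. Of 2 brown fat markers, Ucp1, which defines brown fat, was well above background on 0 arrays. Cidea, the other, was so on all 4, with levels of 1.05, 1.79, 0.13 and 0.33. Its differences were 0.74 for Txnip loss in lean mice and -0.92 for ob/ob with Txnip. Schwann cell markers had 2.13, 6.54, 3.67 and 6.34, and macrophage markers 3.21, 5.22, 3.29 and 4.27. Of 3 heart markers Myh6 made up nearly all of the sum, with levels of 5.89, 5.88, 5.02 and 4.27, while Nppa was higher by 0.23 in ob/ob than in WT and Myl7 was well above background on 2 arrays. The part of fibre type, tendon or other tissue in the complex I differences was not tested.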

How the data were processed

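The deposited scanner files hold a spot intensity per probe, processed by the authors with Agilent Feature Extraction 9.5.3.1 per the file headers, background-subtracted and not scaled between arrays. A deposited value table of the same arrays holds log2 values; set against levels scaled at the 75th percentile its differences had slopes near 1 and median gaps near 0, and each of its 41252 probes had a median within 0.001 of 0 over the arrays, so it is scaled alike and centred per probe, and why some probes are missing from it was not given in the sources.

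From the intensities, a level was computed as the log2 processed signal after subtracting the array's 75th percentile, without outlier spots (59 to 110 per array) and with replicate spots averaged. The highest-mean probe well above background on all 4 arrays stood for a gene. Probe positions are on mm8 per the file headers, and promoters are from RefSeq, GRCm38.p6. Thresholds were a log2 difference of 0.32 and a 1.5-fold difference. The additive fit used limma 3.58.1 in R 4.3.3 on genes above background on at least 2 arrays, with Benjamini-Hochberg adjustment over all of them. It was tested on simulated data that were additive with independent noise. That test cannot tell how the fit does on arrays that depart from additivity. The members, roles, gene lists and thresholds were chosen with earlier results of these data known. All 38 members are counted in every summary, and the values of 1 of them are not reported here; those named are core subunits, the 3 lowest and 3 highest in each comparison, members past 1.5-fold, the smallest p-values of the fit, assembly factors and Ndufa4. Spike-in scaling, quantile normalization, normexp with an offset of 50, the value table, probe and name rules and filters were tried as alternatives. Other rows of the value table and control spots were left out.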

Additional observations from a re-analysis of the deposited data

Results flagged for a closer look

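For 5 members the Txnip difference was opposite on the lean and the ob/ob background, each by at least 0.185 on the log2 scale (2 SDs of a difference by replicate spots, a narrower measure than the error model's SE of 0.20). These are 13.2% of the members, and 12.8% of genes of like brightness and 6.81% of all genes were likewise lower in lean and higher in ob/ob mice, so the share is near that of genes of like brightness. Opposite signs of any size were seen in 17 members (44.7%), in 57.6% of genes of like brightness and in 44.4% of all genes. The ob/ob minus the lean difference was 0.66 for Ndufc1 (0.30 against -0.36), 0.60 for Ndufs5 (0.23 against -0.36), 0.55 for Ndufa7 (0.29 against -0.26), 0.43 for Ndufa13 (0.22 against -0.20) and 0.38 for Ndufa12l (0.19 against -0.19). Both values of Ndufa12l and the lean value of Ndufa13 lie within the error model's SE. With 1 array per genotype the difference between the backgrounds was not tested. Genes of like brightness had a median of 0.25 for the same quantity. Under spike-in scaling all 5 were lower without Txnip on the ob/ob background, from -0.32 for Ndufa12l to -0.21 for Ndufc1.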

How the results depend on the processing

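No paired analysis was possible because each genotype had 1 array, so replicate numbers pair nothing and no array could be left out of a pairwise comparison. Relative to the median of all genes, the members' median stayed below 0 under every alternative run (spike-in scaling shifts every gene alike and cannot change it): from -0.23 to -0.091 for Txnip loss in lean mice, -0.15 to -0.06 for Txnip loss in ob/ob mice, -0.40 to -0.14 for ob/ob with Txnip and -0.33 to -0.18 for ob/ob without Txnip. The values that moved were -0.091 (quantile) and -0.11 (normexp) for Txnip loss in lean mice, -0.15 (quantile), -0.14 (normexp) and -0.27 (no filter on dim probes) for ob/ob with Txnip, and -0.33 (no filter) for ob/ob without Txnip. Spike-in scaling moved the median of all genes by 0.25, -0.51, 0.65 and -0.11 in that order of comparisons, and the members' own median for ob/ob with Txnip then reversed to 0.20. The number of members lower by 0.32 or more (log2) became 0 for Txnip loss in lean mice under spike-in, quantile and normexp; 33 for Txnip loss in ob/ob mice under spike-in; 0 (spike-in), 10 (quantile) and 10 (normexp) for ob/ob with Txnip; and 16 for ob/ob without Txnip under spike-in. At a 1.5-fold threshold these counts were 0, 0, 11 and 1. The cause of these shifts was not tested. The share of all genes lower by 0.32 or more was not counted under spike-in, quantile or normexp. Under spike-in scaling the median of all genes was -0.48 for Txnip loss in ob/ob mice and -0.08 for ob/ob without Txnip. The additive fit called 0 members under every alternative. Under normexp 3 members for Txnip and 8 for ob/ob passed an unadjusted limma p of 0.05, all lower. Of all 16200 genes, 633 and 1222 were lower at that p under normexp. Under spike-in scaling 0 and 0 members passed, and 187 and 165 of all genes were lower at that p. With that scaling the fitted median of the members for ob/ob was -0.04 (-0.31 with scaling at the 75th percentile). The number of arrays limits the precision.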
